A study of Homo sapiens with 6 samples.

Results

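The RBM genes are named for the RNA-binding motif that their proteins carry, and the name covers proteins of many different tasks in the life of an RNA. The genes described here are all those of the deposited table whose symbol is RBM followed by a number and at most 1 letter, other than RBM47 itself. There were 36 of them among 57150 genes, each with a single row. They were chosen by name, by a rule that uses none of their values, though earlier results of these data were known. All libraries came from H358, a human lung cancer cell line of epithelial character. In the RBM47 knockdown group RBM47 had been lowered with short hairpin RNAs delivered by lentivirus, and the control group was treated as a control knockdown. There were 3 libraries of polyadenylated RNA per group, described by the series design as biological triplicates, with no hairpin sequence given by the labels. Values are FPKM, which count the fragments of a gene relative to the length of its transcripts and the size of the library, so that levels can be set side by side between genes.

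RNA recognition motifs are short protein folds that grip single-stranded RNA. Proteins that carry them take part in choosing splice sites, in assembling the spliceosome, in marking spliced messengers for export and quality control, in placing methyl groups on adenosine, in handing unwanted nuclear transcripts to the exosome, and in setting how long a messenger lasts. RBM47 is such a protein and is expressed in epithelial cells. Many genes of RNA-binding proteins also have transcripts that are themselves regulated by splicing, which gene-level FPKM do not resolve.

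The labelled knockdown was visible in RBM47, at 12.01, 13.4 and 13.5 FPKM after RBM47 knockdown and 85.2, 92.4 and 87.9 FPKM in the controls, which left 14.6% of the control level. Across the 6 libraries the total was 651951 to 673552 FPKM, and each library held 14220 to 14526 genes at 1 FPKM or above. Fragment numbers are unknown, and the relative depth read from the lowest values was 1.03 and 1.05 in knockdown replicates 2 and 3 and 1.09, 1.08 and 1.16 in the controls, with knockdown replicate 1 set to 1. The 5 epithelial markers EPCAM, KRT8, KRT18, KRT19 and CDH1 lay between 407 and 911 FPKM in every library. All 5 were lower after knockdown without overlap of the groups, and KRT8, KRT18, KRT19 and CDH1 fell, by 0.35, 0.26, 0.28 and 0.31 on the log2 scale (limma, adjusted p = 0.00682, 0.0101, 0.0193 and 0.0126), while EPCAM at -0.12 did not pass (0.114). Over all tested genes, 16.8% were lower without overlap and 6.34% were lower at an adjusted p under 0.05. The part of these markers in the results on the RBM genes was not tested. Markers of leukocytes and endothelium reached at most 1.31 and 0.199 FPKM, and of 4 fibroblast markers COL1A1 lay at 10.4 to 15.5 FPKM and the others under 1 FPKM.

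Most RBM-named genes were well expressed in H358 cells. Of the 36, 32 averaged at least 1 FPKM across all 6 libraries and could be tested, and the tested members ran from 3.84 to 169 FPKM. Their median was 23.6 FPKM, against 12.4 FPKM over all 14419 tested genes, and 26 of the 32 lay above the latter value. The most abundant was RBM39, a splicing factor related to U2AF2, at 172, 158 and 177 FPKM after RBM47 knockdown and 181, 161 and 167 FPKM in the controls. Next came RBM8A, the Y14 subunit of the exon junction complex, at 129, 124 and 136 FPKM after knockdown and 111, 130 and 123 FPKM in the controls. The third was RBM4, a regulator of alternative splicing and translation, at 97.0, 99.9 and 100.6 FPKM against 94.2, 97.1 and 99.3 FPKM. The groups overlapped in all 3 of these genes, whose order was the same in every library. RBM5, RBM34 and RBM3 followed at means of 68.7, 68.0 and 59.6 FPKM, with ranges over the libraries that overlapped.

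At the other end, RBM43, RBM11 and RBM45 were the lowest tested members at means of 3.84, 3.99 and 4.10 FPKM, with overlapping ranges. The 4 members that were too low to test are known from other tissues. RBM44 and RBM46, genes of germ cells, lay at 0.296 to 0.707 and 0.216 to 0.348 FPKM. RBM46 is the closest relative of RBM47 among them, and it stayed at this low level in both groups. RBM20, a splicing factor of heart muscle, was at 0.0709 FPKM or below in each library. RBM24, a muscle splicing factor, was listed at 0.0693, 0.138 and 0.0494 FPKM after RBM47 knockdown and at 0 in each control library. These values rest on very few fragments and carry no fold change here.

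**Figure D1:**
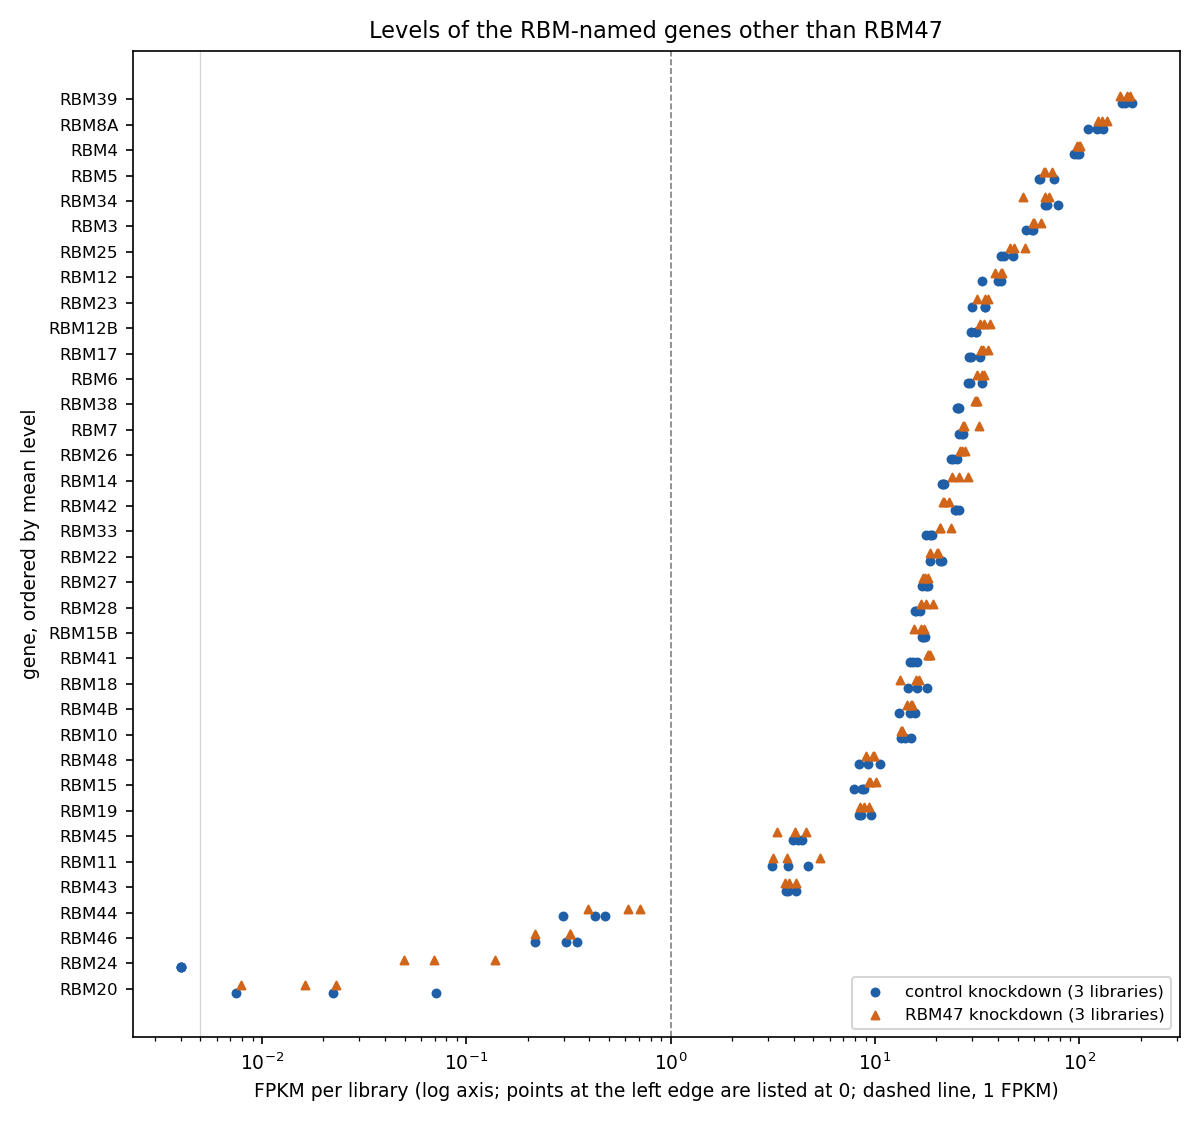
Level of each of the 36 genes in each library (FPKM, log axis), ordered by mean, with circles for the 3 control libraries and triangles for the 3 RBM47 knockdown libraries. For most genes the groups lie on top of each other, and 4 genes stay left of the dashed line at 1 FPKM.

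The knockdown of RBM47 was accompanied by small differences in this group of genes. In limma over all tested genes (log2(FPKM + 1), Benjamini-Hochberg adjusted p under 0.05), 3 of the 32 tested members rose in the knockdown, none fell and 29 did not pass. The share of 9.38% stands beside 11.4% of all 14419 tested genes past the threshold, 5.1% higher and 6.34% lower, so the members were called about as often as genes at large. At an unadjusted p under 0.05 there were 9 members, beside 28.4% of all tested genes. The median log2 fold change was 0.05 over the members and 0.01 over all tested genes, and the median absolute value was 0.09 and 0.13. The largest absolute value among the members was 0.29, where RBM47 itself fell by 2.68 on the same scale (limma, adjusted p = 2.04e-06). The sign was positive in 24 members and negative in 8, or 75.0% positive against 51.2% of all tested genes. No test was made on the sign count, since the members share their libraries. The summed level of the 36 genes was 1127, 1137 and 1185 FPKM after RBM47 knockdown and 1122, 1099 and 1090 FPKM in the controls.

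**Figure D2:**
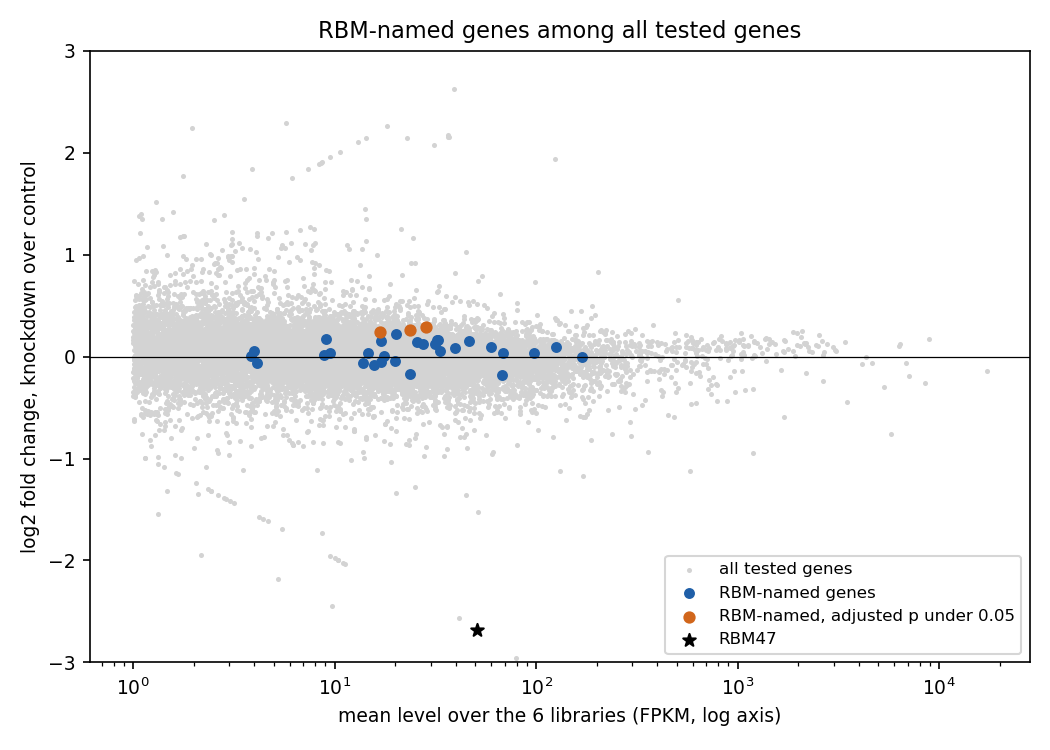
Log2 fold change (knockdown over control) against mean level (FPKM, log axis) for all 14419 tested genes in grey, the RBM-named genes in blue, those past the threshold in orange and RBM47 as a star. The RBM-named genes lie within 0.29 of 0 while RBM47 lies at -2.68, and 6 genes beyond 3 in either direction are not drawn.

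The members that rose were RBM38, RBM41 and RBM14. RBM38 is an RNA-binding protein that sets the stability and translation of target messengers and is a known target gene of p53. It was at 31.3, 31.4 and 31.0 FPKM after RBM47 knockdown and at 25.4, 25.8 and 25.2 FPKM in the controls. The 3 knockdown values lay close together and well above the controls, and no other tested member had relative spreads as small in both groups. Means were 31.2 ± 0.251 and 25.4 ± 0.278 FPKM (SD, n = 3 each), a rise of 22.8% (0.29 ± 0.05 SE on the log2 scale, limma, adjusted p = 0.00872). Its call held in each of the 6 fits that left out 1 library (highest adjusted p = 0.0439). An exact two-sided permutation test of 3 against 3 cannot go below p = 0.1, which RBM38 reached. RBM38 (ENSG00000132819) lies on chromosome 20 in a locus from 55959216 to 55984389 in hg19 that holds 2 genes.

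RBM41 is a component associated with the minor spliceosome, the machinery that removes the rare U12-type introns. It was at 18.2, 18.2 and 18.6 FPKM after RBM47 knockdown and at 15.3, 14.8 and 16.0 FPKM in the controls, so that the groups did not overlap. The rise was 19.2%, from 15.4 ± 0.606 to 18.3 ± 0.268 FPKM (SD, n = 3 each; 0.24 ± 0.06 SE on the log2 scale, limma, adjusted p = 0.0315). The call was lost whichever single library was dropped, at adjusted p = 0.0667 to 0.101 and log2 fold changes of 0.21 to 0.27. RBM41 (ENSG00000089682) is alone in its locus, chromosome X from 106307650 to 106362057 in hg19.

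RBM14 is a nuclear coactivator and a protein of paraspeckles, nuclear bodies built on a long noncoding RNA. It was at 25.9, 28.4 and 23.8 FPKM after RBM47 knockdown and at 21.7, 21.3 and 21.5 FPKM in the controls. The controls were nearly level and the knockdown libraries spread above them. The control mean was 21.5 ± 0.188 FPKM and the knockdown SD was 2.29 FPKM (n = 3 each), with a rise of 21.1% (0.26 ± 0.07 SE on the log2 scale, limma, adjusted p = 0.0487). Among the fits without 1 library the call held without RBM47 knockdown replicate 3 (adjusted p = 0.0264) and was lost in the other 5 (highest 0.133). RBM14 (ENSG00000239306) shares a locus of 5 genes on chromosome 11, 66384053 to 66445392 in hg19, with RBM4, RBM4B and the read-through gene RBM14-RBM4. The read-through gene was listed at means of 5.13 and 4.60 FPKM in knockdown and control. The remaining gene of the locus, RP11-658F2.8, was listed at 20.8 and 17.6 FPKM (log2 fold change 0.22, limma, adjusted p = 0.239). The split of fragments between the genes of this locus is therefore uncertain.

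**Figure D3:**
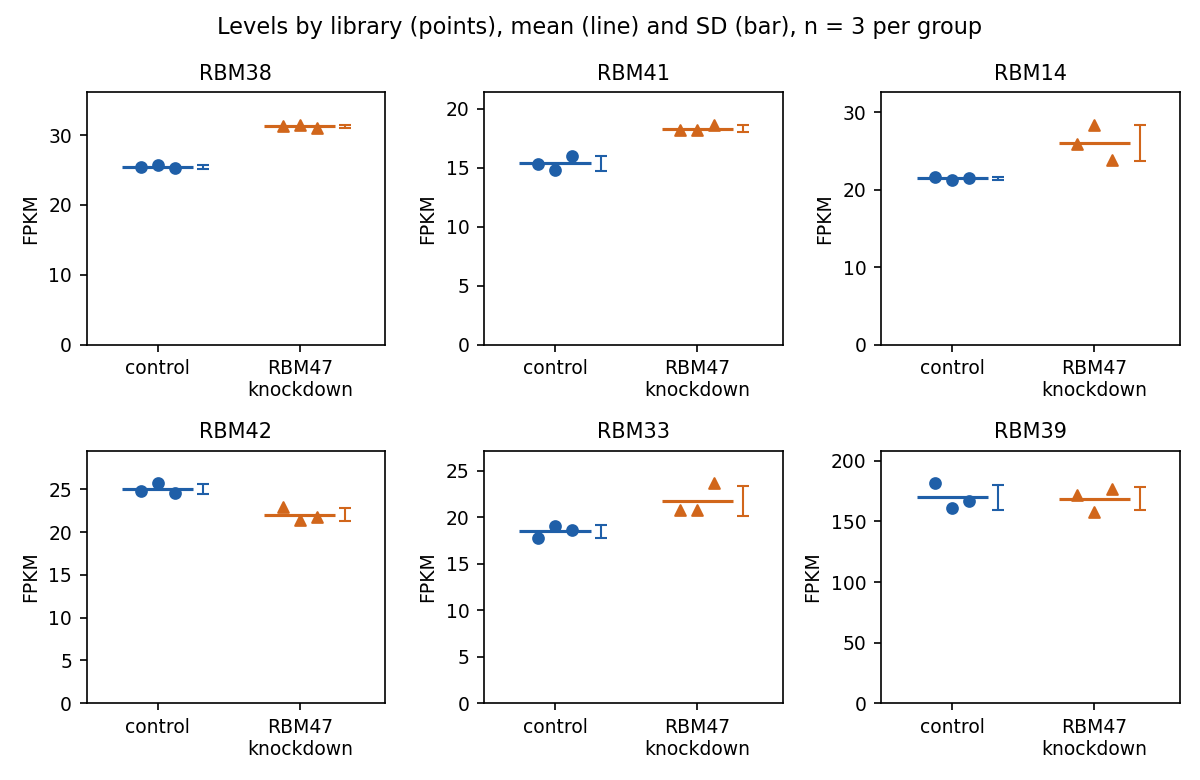
FPKM by library for RBM38, RBM41 and RBM14, which rose, RBM42 and RBM33, which were next in order of p, and RBM39, the most abundant member, with the mean as a line and the SD as a bar (n = 3 per group). The groups are apart in each panel except that of RBM39, and each axis starts at 0.

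The promoters of the 3 genes that rose are shown because these genes moved in the same direction. They are 300 bases from 250 before to 50 after the annotated start, printed 5′ to 3′ on the gene's strand, from RefSeq on GRCh38.p14. Capitals mark matches, on either strand, to 5 motifs. These were the GC box (GGGCGG), the box named for its letters CCAAT, the TATA box (TATAAA), the cyclic AMP response element (TGACGTCA) and the CHR element of cell-cycle promoters (TTTGAA). None of these patterns holds another. RBM38 is at chr20:57391146-57391445 (+), RBM14 at chr11:66616380-66616679 (+) and RBM41, for the outer of the 2 starts the table gives, at chrX:107118773-107119072 (-).
RBM38: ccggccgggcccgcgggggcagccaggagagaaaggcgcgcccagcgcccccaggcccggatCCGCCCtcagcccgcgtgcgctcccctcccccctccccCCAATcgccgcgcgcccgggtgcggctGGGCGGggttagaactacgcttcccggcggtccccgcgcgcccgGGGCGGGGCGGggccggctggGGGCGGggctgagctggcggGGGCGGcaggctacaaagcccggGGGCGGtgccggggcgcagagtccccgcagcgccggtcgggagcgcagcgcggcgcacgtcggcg
RBM14: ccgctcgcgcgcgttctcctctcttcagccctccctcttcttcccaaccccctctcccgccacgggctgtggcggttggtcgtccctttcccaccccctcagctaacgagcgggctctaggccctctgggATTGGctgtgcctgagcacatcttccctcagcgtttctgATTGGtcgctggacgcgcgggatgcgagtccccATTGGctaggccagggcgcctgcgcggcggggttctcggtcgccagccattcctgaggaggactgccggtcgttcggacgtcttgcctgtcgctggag
RBM41: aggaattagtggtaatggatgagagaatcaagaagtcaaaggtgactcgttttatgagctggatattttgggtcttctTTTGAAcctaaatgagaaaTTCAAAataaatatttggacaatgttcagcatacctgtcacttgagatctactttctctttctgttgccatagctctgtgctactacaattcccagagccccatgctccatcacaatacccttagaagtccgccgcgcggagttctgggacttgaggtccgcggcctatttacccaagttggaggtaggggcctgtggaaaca
The RBM38 window held 7 GC boxes and 1 CCAAT at a base composition of 82.7% G and C. The RBM14 window held 3 CCAAT and no GC box at 66.7%, and the printed RBM41 window held 2 TTTGAA matches at 44.3%. The window of the other RBM41 start, not printed, held 1 TTTGAA match at 56.3%. No motif of the 5 occurred in all 3 printed windows. Over all 35116 promoters of the table, 45.0% held a GC box, 34.6% CCAAT and 15.2% TTTGAA, and of the 34 promoter entries matched to members 21, 18 and 7 did. A match is a description of letters in this window.

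A further 8 members did not pass the threshold although their groups did not overlap. In all, the knockdown values lay above the controls in 10 tested members and below them in 1, beside 17.3% and 16.8% of all tested genes. The single one below was RBM42, which binds the U4/U6.U5 tri-snRNP of the spliceosome, at 23.0, 21.4 and 21.8 FPKM after RBM47 knockdown and 24.8, 25.7 and 24.6 FPKM in the controls (log2 fold change -0.18, limma, adjusted p = 0.0717). RBM33, a nuclear RNA-binding protein, was at 20.8, 20.8 and 23.6 FPKM against 17.7, 19.1 and 18.6 FPKM (0.22, adjusted p = 0.073). These 2 genes were nearest to the threshold. RBM17, the splicing factor SPF45, had a log2 fold change of 0.16 (adjusted p = 0.136), with its lowest knockdown library at 33.1 and its highest control at 32.8 FPKM. RBM12B had the same value of 0.16 (adjusted p = 0.117), in a locus of 11 genes whose member FAM92A1 rose by 0.32 (limma, adjusted p = 0.0172). The other members apart in this way were RBM7, RBM15, RBM26 and RBM28.

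**Figure D4:**
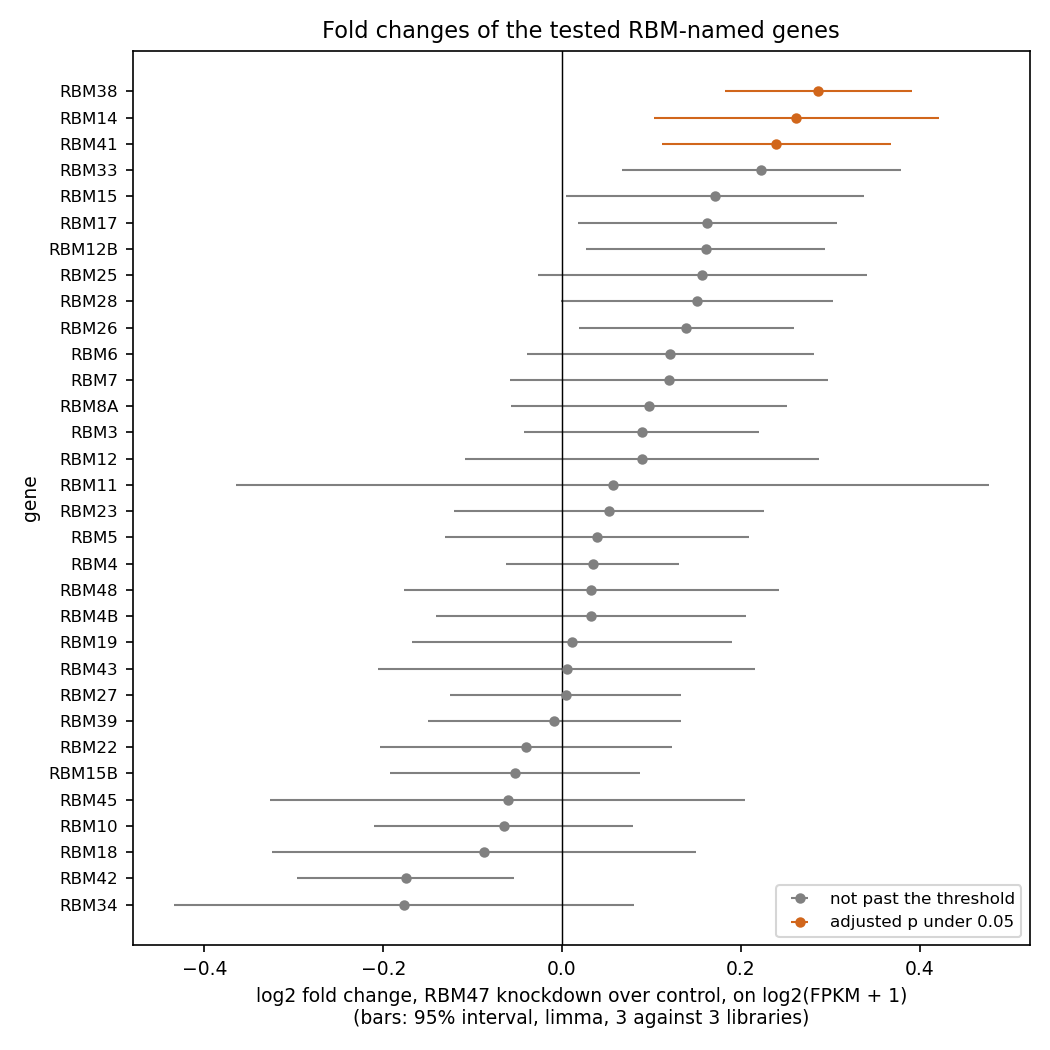
Log2 fold change (knockdown over control on log2(FPKM + 1)) of the 32 tested members with its 95% interval from limma, 3 against 3 libraries, and those past the threshold in orange. The estimates run from -0.18 to 0.29, and each interval stays within 0.5 of 0.

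By role, the splicing factors were the largest group. Of 15 members 14 were tested, 1 of them (RBM41) rose and none fell, beside 5.1% and 6.34% of all tested genes, with a median log2 fold change of 0.04. RBM5 and RBM10, related splicing factors with the same order of domains, were at 69.6 ± 3.26 and 13.5 ± 0.0868 FPKM after knockdown and 67.8 ± 6.61 and 14.2 ± 0.840 FPKM in the controls (SD, n = 3 each). Neither passed, with 95% intervals of the log2 fold change from -0.13 to 0.21 for RBM5 and from -0.21 to 0.08 for RBM10. RBM39 and its relative RBM23 had intervals of -0.15 to 0.13 and -0.12 to 0.23. RBM25, which binds exonic enhancers, had 0.16 (interval -0.03 to 0.34), and RBM22, a part of the catalytic core, had -0.04 (-0.20 to 0.12). The neighbours RBM4 and RBM4B, close copies of each other, lay at ratios of 6.40 to 6.97 in the knockdown libraries and 5.99 to 7.39 in the controls. Reads of such copies can be misassigned between them.

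Outside splicing, 2 members rose, RBM38 and RBM14, and the others did not pass, beside 5.1% higher and 6.34% lower of all tested genes. So few calls support no contrast between the roles. RBM8A had a log2 fold change of 0.10 (95% interval -0.06 to 0.25). In the m6A writer complex, which methylates adenosines, RBM15 lay at 9.64 ± 0.403 against 8.45 ± 0.519 FPKM (0.17, limma, adjusted p = 0.166) and RBM15B at 16.6 ± 0.958 against 17.2 ± 0.233 FPKM (-0.05, adjusted p = 0.61; SD, n = 3). The ratio of RBM15 to RBM15B was 0.554 to 0.610 in the knockdown libraries and 0.449 to 0.515 in the controls, without overlap. Of the 8 related pairs compared, the ratio of RBM26 to RBM27 was also apart, at 1.47 to 1.56 after knockdown and 1.33 to 1.42 in the controls. The pair of RBM24 and RBM38 was apart too, but RBM24 is listed at 0 in each control library and the ratio is not read. Among all tested genes 34% had levels apart in either direction. Ratios were not computed for other gene pairs, so no shift in the balance of related genes is read from these.

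Of the nuclear decay adaptors, RBM7, the RNA-binding subunit of the NEXT complex, and RBM26, linked to the exosome, lay at 0.12 and 0.14 on the log2 scale (limma, adjusted p = 0.347 and 0.126). RBM27, the relative of RBM26, lay at 17.7 ± 0.447 and 17.6 ± 0.663 FPKM (SD, n = 3), with an interval of -0.12 to 0.13. Among the nucleolar proteins of ribosome production RBM28, RBM19 and RBM34 had 0.15, 0.01 and -0.18, of which none passed. RBM34 was the most uneven abundant member, at 53.0, 71.1 and 68.0 FPKM after RBM47 knockdown and 68.3, 78.7 and 69.2 FPKM in the controls. Its groups overlapped, and without RBM47 knockdown replicate 1 its value was -0.05.

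RBM3, a cold-inducible protein that favours translation, was at 59.8, 59.5 and 65.2 FPKM after knockdown and 54.6, 59.0 and 59.6 FPKM in the controls (log2 fold change 0.09, limma, adjusted p = 0.343), and the groups overlapped. Its relative CIRBP had 0.06 (adjusted p = 0.557). RBM12 lay at 40.6 ± 1.82 and 38.3 ± 4.42 FPKM (SD, n = 3), with an interval of -0.11 to 0.29. It lies in a locus of 6 genes with CPNE1, which rose by 0.25 (limma, adjusted p = 0.0145).

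For the 29 members that did not pass, the intervals bound what a difference could be in these libraries, gene by gene and without adjustment. Those of RBM42 (-0.30 to -0.05) and RBM33 (0.07 to 0.38) left out 0, as did those of RBM12B, RBM15, RBM17 and RBM26. Over all tested genes, 28.4% had an unadjusted p under 0.05 in limma. Each 95% interval of the log2 fold change, taken on log2(FPKM + 1), lay within 0.5 of 0, and 13 lay within 0.25. The lowest bound was -0.43, for RBM34, and the highest was 0.48, for RBM11, which is also the least even tested member. RBM11 had a mean of 3.99 FPKM, and this scale understates the fold changes and bounds of such low genes. The median coefficient of variation between replicates was 5.08% in the knockdown and 6.09% in the control over the tested members, against 7.52% and 6.85% over all tested genes. A p that misses the threshold does not show equal levels. Of the 32 tested members 22 lie in loci that the table gives to more than 1 gene, where the assignment of fragments can be uncertain. Whether the genes of such a locus overlap was not checked.

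The genes that rose differed among themselves in transcript features. In GENCODE release 29, which gave a coding transcript by identifier for 30 of the 32, base composition of the longest coding form was 63.1% G and C in RBM38, 59.4% in RBM14 and 41.6% in RBM41. The members that did not pass had a median of 45.3% and ran from 35.3% to 65.1%. Over all tested genes with a coding transcript the median was 48.8%. The coding part had 717, 2007 and 1239 bases in the same order.

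Complex partners and relatives of the members were called at the rate of genes at large. Over 9 lists with 63 genes, 62 were tested, 3 rose and 4 fell, or 11.3% beside 11.4% of all tested genes, with a median log2 fold change of 0.06. No gene passed among 4 other exon junction genes, 6 other m6A writer genes, 5 genes of nuclear exosome targeting, 15 genes of the U2 particle and 3′ splice site recognition or 5 paraspeckle genes. Their most abundant members MAGOH, KIAA1429, PABPN1, SF1 and SFPQ lay at -0.08, 0.09, 0.12, 0.06 and 0.10 on the log2 scale (limma, adjusted p = 0.328, 0.235, 0.117, 0.385 and 0.255). PABPN1 passed with quantile normalization (0.17, adjusted p = 0.0407).

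In the minor spliceosome, the setting of RBM41 and RBM48, 1 of 9 tested genes rose and 2 fell, with a median of 0.00. These 3 calls stand beside 5.1% higher and 6.34% lower over all tested genes, and so short a list supports no statement of its own. ARMC7, the binding partner of RBM48, was at 6.08, 6.13 and 5.82 FPKM after RBM47 knockdown and 8.92, 8.50 and 8.50 FPKM in the controls. This was a fall to 69.5% of the control level (-0.46 ± 0.07 SE on the log2 scale, limma, adjusted p = 0.00668), and it held in each of the 6 fits without 1 library. RBM48 itself lay at 9.58 ± 0.485 and 9.37 ± 1.10 FPKM (SD, n = 3; log2 fold change 0.03, adjusted p = 0.848). Of the U11/U12 proteins, PDCD7 rose by 0.26 (adjusted p = 0.0218; 0.0521 to 0.0786 with single libraries dropped). ZCRB1, in a locus of 11 genes, fell by 0.26 on the log2 scale (adjusted p = 0.0286), and this held in 1 of those 6 fits (adjusted p = 0.037 to 0.0999).

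In the active spliceosome around RBM22 1 of 10 genes fell, beside 6.34% of all tested genes. This was PLRG1, at 67.2, 66.4 and 65.1 FPKM after knockdown and 78.5, 74.8 and 78.5 FPKM in the controls (log2 fold change -0.22, limma, adjusted p = 0.0187). With single libraries dropped it passed in 3 of 6 fits (adjusted p = 0.0392 to 0.0703), and it did not pass without trend (0.0516) or with the replicate block (0.0686). A list picked by hand held 7 tested genes whose names begin with RB and which carry the same motif but fall outside the naming rule. It is not a full set of such genes. Of these 7, 2 rose and 1 fell, again beside 5.1% and 6.34% of all tested genes, and so short a list supports no statement of its own. RBPMS was at 37.3, 36.6 and 29.8 FPKM after knockdown and 49.8, 45.0 and 44.8 FPKM in the controls (-0.42, adjusted p = 0.0248), RBMXL1, a retrocopy of RBMX, rose by 0.33 (0.0224), and RBMS1 rose by 0.21 (0.0379). In the fits without 1 library they passed in 2, 1 and 0 of 6 (highest adjusted p = 0.0862, 0.078 and 0.122), and reads of RBMXL1 can be confused with those of RBMX. RBMS3 had the largest absolute log2 fold change of all partner lists, 0.47, without passing (5.91 ± 1.11 to 8.51 ± 0.947 FPKM, SD, n = 3; limma, adjusted p = 0.0641), and it is named after its values were seen.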

How the data were processed

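Polyadenylated RNA of 6 H358 libraries was measured, 3 per group, from stranded Illumina libraries per the labels' protocols. TopHat 1.4.1, Cuffdiff 2.2.0 and the build hg19 are listed, with no settings, per the submitters' processing notes. The authors deposited FPKM per gene and library, with no statement on scaling between libraries or on use of strand. The depth is therefore unknown, and relative depth was taken from the steps of single-gene loci under 0.3 FPKM. Loci are those of the table, with starts counted from 1.

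Genes averaging at least 1 FPKM were tested with limma 3.58.1 (R 4.3.3, trended prior) on log2(FPKM + 1), comparing knockdown with control, with Benjamini-Hochberg adjustment over all 14419 genes and a threshold of 0.05. Fold changes on this scale understate those of low genes. Alternatives were pseudocounts of 0.1 and 0.5, an average of at least 5 FPKM or no filter, 3 rescalings, no trend, the replicate number as a block and each library left out. On simulated data of 14419 genes in this design, 200 genes were raised, none of them of low level. Of those changed by 0.25 (log2) 16% were recovered, and of those changed by 0.5 82%, while 9.26% of the calls were unchanged genes. In the libraries themselves 1650 genes passed, far more than were changed in the simulation. Its shares therefore do not give the recovery in the comparison reported here. The members, lists and tests were chosen with earlier results of these data known. Named were the members past the threshold, the 6 most abundant, the 6 largest changes not past it and related pairs, and in each partner list the called genes or the most abundant one. RBM7, RBM11, RBM19, RBM20, RBM22, RBM25, RBM28, RBM43 to RBM46, RBM48, RBM14-RBM4, CPNE1 and FAM92A1 were named beyond this rule, as examples of a role, of low levels or of a shared locus.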

Additional observations from a re-analysis of the deposited data

How the results depend on the processing

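Of 615 values recomputed under 15 alternatives, 514 kept their direction and side of the threshold or stayed within the spread. Without a filter 916 genes and 3 partner genes passed, and without trend 3 partner genes did, where 1650 and 7 had passed. The median log2 fold change of the members was 0.0890 at an average of at least 5 FPKM and 0.0864 with quantile normalization, where 0.0545 was found. At 5 FPKM the fold changes of single members were the same, and the median moved because RBM43, RBM11 and RBM45 were left out. RBM14 lost its call with no filter (adjusted p = 0.1001) and without trend (0.0792). RBPMS, RBMXL1, RBMS1 and ZCRB1 lost theirs with no filter (0.0762, 0.0503, 0.0629 and 0.0596), and RBPMS, PLRG1, RBMS1 and ZCRB1 without trend (0.0513, 0.0516, 0.0778 and 0.0581). RBM39, which lay at -0.01, changed sign with the same total (0.0156), the same upper quartile (0.00362) and quantile normalization (0.0461), each far from the threshold. The causes of the other shifts were not tested.

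With the replicate number as a block (replicate block), 1 member passed and was higher, RBM38, with 837 genes and 2 partner genes. RBM41 and RBM14 had adjusted p = 0.0876 and 0.0933, and PDCD7, PLRG1, RBMXL1, RBMS1 and ZCRB1 had 0.0764, 0.0686, 0.0601, 0.107 and 0.0776. The correlation of deviations between libraries of the same number was 0.0187, -0.0961 and 0.0772, so the numbers are not taken as pairs, and libraries did not all correlate best with their own number.

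In the fits without 1 library, which have fewer libraries, 1 to 2 members passed, 1 to 2 higher, with 630 to 1255 genes and 1 to 4 partner genes, and the median of the members was 0.0406 to 0.0956. The log2 fold change ran from -0.0459 to 0.0390 for RBM39, -0.00672 to 0.149 for RBM12, -0.0160 to 0.101 for RBM23, -0.00214 to 0.117 for RBM5, -0.0346 to 0.0865 for RBM4B and -0.0239 to 0.0268 for RBM27, across 0 in each. Depth is unknown, and 3 libraries a group limit what can be detected. A difference whose unadjusted 95% interval leaves out 0, as in RBM33 and RBM42, can still miss the adjusted threshold.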
